A study of Homo sapiens with 5 samples.

Results

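The glycolysis and hypoxia response genes described here are 36 human genes of glucose uptake, glycolysis, pyruvate use and the response to low oxygen. They were taken by gene name from a table of estimated counts per transcript, summed per gene, and make up 36 of the 35453 gene names in that table. RNA was sequenced from KGN cells, an established line grown from a human granulosa cell tumour, after 24 h with one of 4 activators or with none. Every group, the control included, was kept in charcoal-stripped culture medium that held 100 nmol/L of androstenedione, a substrate that granulosa cells turn into oestrogen.

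The FSH cells received follicle-stimulating hormone at 100 ng/mL, which acts on a receptor that raises cyclic AMP. The FSK cells received forskolin, which activates adenylyl cyclase directly; the treatment label gives 10 mmol/L, while the written protocol has a micro symbol, which gives 10 µmol/L. SC79, a small molecule used to activate the kinase AKT, was added at 4 µg/mL. PMA, a phorbol ester that activates protein kinase C, is labelled 0.1 mmol/L and stands as 0.1 µmol/L in the protocol. The control is called untreated in its title and had ethanol added according to the protocol.

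Each group had 1 library, made from RNA pooled over 3 cultures of different weeks, so no difference below has a replicate check and no p-value is given. Summed over named genes, the libraries held 53493911 estimated counts with FSH, 52311886 with FSK, 50218703 with SC79 and 52168956 with PMA, against 58811603 in the control. Levels are given as scaled counts, which are estimated counts brought to a common library size by the TMM method. A fold is the treated over the control level, and its exact binomial 95% interval, in brackets below, covers counting error only. Log2 ratios were taken after 1 scaled count was added to both levels, and a gene is called past 1.2-fold or 2-fold on that scale. In all, 14585 genes with a mean of at least 20 scaled counts form the background, whose share past the same limit is given with the counts. Of the 36 genes, 35 reached that mean. ALDOC, an aldolase of brain, lay just outside with a mean of 19.4, while ADM, with 30.4, and EGLN3, with 47.2, lay just inside. In a line of cells sequenced in bulk, fewer cells of a type and less RNA per cell cannot be told apart. Of 12 granulosa markers 11 reached the minimum, and WT1 was at or near 0 in every library. FSHR, the receptor of FSH, had 111 scaled counts with FSH, 132 with FSK, 73.1 with SC79 and 36.6 with PMA, against 92.7 in the control.

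Glycolysis splits glucose into pyruvate in the cytosol. Transporters bring glucose in, hexokinases trap it as a phosphate, and phosphofructokinase, tuned by the PFKFB enzymes that make and break its activator fructose 2,6-bisphosphate, commits it to breakdown. Lactate dehydrogenase turns pyruvate into lactate, which the carrier SLC16A3 exports, whereas PDK1 keeps pyruvate out of the mitochondrion. Many of these genes are targets of HIF-1, a factor whose alpha subunit HIF1A is hydroxylated by EGLN enzymes and destroyed when oxygen is present. In the ovary the granulosa cells of the follicle lie outside the blood supply until ovulation and are known to use glycolysis.

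HIF binds DNA at a short core, ACGTG or GCGTG, and these letters were searched on both strands in RefSeq promoter windows of 300 bases (250 before and 50 after a gene start, GRCh38.p14). Windows were at hand for 33 of the 36 genes, and the window nearest the start of the most abundant transcript was taken for each. Some of these windows do not cover that start. The distance was 2757 bases for EGLN1, 1658 for PGAM1, 991 for P4HA2 and 357 for ANKRD37, which is printed below. It was 510 for GAPDH, 450 for PFKP, 393 for ADM and 369 for ALDOC. Shorter distances above 50 bases can also miss the start, depending on the side. The ACGTG core was present in 15 of these windows, the GCGTG core in 16, and at least 1 of them in 27. These are chosen windows, 1 a gene, so the shares set beside all other windows take every window of each gene. That is no test, because the genes were listed for glycolysis and hypoxia response, and many are HIF-1 targets. Base composition was not matched either. Of all 63 windows of the 33 genes, 38.1% held ACGTG, 41.3% held GCGTG and 66.7% held either, against 21.4%, 36.5% and 48.4% of all 35116 windows in the table. The cores differ in their first base, so no stretch of 5 bases holds both, and CACGTG, which holds ACGTG on both strands, was counted on each. A match describes the letters only and is not a site.

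The promoters of 6 genes are printed because the values below turn on their genes: CA9, SLC16A3 and ANKRD37 were among those highest with FSK, LDHA and LDHB diverged, and PFKFB3 was lower with FSK and PMA. Each is written 5′ to 3′ on the strand of the gene, with every ACGTG or GCGTG core, or its complement on the other strand, in capitals. The CA9 window is chr9:35673678-35673977 (plus strand), that of SLC16A3 chr17:82228792-82229091 (plus), that of ANKRD37 chr4:185396591-185396890 (plus), that of LDHA chr11:18396101-18396400 (plus), that of LDHB chr12:21657793-21658092 (minus) and that of PFKFB3 chr10:6202682-6202981 (plus).
CA9: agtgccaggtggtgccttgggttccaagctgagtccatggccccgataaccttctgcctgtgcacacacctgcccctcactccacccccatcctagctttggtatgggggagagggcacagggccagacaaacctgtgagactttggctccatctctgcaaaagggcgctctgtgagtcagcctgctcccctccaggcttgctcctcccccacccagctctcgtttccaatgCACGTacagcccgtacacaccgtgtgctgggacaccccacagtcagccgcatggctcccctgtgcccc
SLC16A3: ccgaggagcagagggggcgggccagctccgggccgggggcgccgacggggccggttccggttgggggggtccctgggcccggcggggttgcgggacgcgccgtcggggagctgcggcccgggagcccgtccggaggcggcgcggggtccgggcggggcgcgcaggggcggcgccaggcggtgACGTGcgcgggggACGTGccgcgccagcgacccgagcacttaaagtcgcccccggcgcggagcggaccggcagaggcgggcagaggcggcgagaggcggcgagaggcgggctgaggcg
ANKRD37: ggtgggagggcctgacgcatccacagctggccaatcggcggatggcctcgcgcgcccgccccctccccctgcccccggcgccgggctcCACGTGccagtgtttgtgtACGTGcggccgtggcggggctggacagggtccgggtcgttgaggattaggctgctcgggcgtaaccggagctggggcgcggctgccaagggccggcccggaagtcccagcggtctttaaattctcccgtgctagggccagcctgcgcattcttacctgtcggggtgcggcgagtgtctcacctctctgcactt
LDHA: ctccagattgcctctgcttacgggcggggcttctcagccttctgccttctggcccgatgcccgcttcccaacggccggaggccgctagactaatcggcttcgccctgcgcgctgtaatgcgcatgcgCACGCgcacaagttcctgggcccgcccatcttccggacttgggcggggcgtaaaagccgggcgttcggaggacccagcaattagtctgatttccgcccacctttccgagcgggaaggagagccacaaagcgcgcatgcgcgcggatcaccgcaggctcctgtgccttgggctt
LDHB: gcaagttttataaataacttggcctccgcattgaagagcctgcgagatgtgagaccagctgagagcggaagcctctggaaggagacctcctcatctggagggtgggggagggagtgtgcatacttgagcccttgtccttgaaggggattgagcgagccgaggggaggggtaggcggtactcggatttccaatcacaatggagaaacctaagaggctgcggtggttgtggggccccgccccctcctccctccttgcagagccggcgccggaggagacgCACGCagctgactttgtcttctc
PFKFB3: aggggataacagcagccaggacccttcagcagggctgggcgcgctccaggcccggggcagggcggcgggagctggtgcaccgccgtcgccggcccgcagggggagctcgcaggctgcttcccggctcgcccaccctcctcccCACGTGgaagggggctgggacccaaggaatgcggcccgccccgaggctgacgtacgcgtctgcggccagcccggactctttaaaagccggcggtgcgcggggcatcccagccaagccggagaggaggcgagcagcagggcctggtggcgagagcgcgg

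The CA9 window holds 1 ACGTG core, SLC16A3 holds 2, and ANKRD37 holds 3, of which 2 are the strands of one CACGTG. LDHA and LDHB, which behaved differently with PMA, each hold 1 GCGTG core. PFKFB3, which was lower with FSK, holds the palindrome CACGTG.

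Divided by transcript length, which allows genes to be compared with each other, the levels in the control spanned more than 3 orders of magnitude. On this scale, in TPM computed from the estimated counts, the control held 3691 for GAPDH, 2218 for the pyruvate kinase PKM, 1704 for the aldolase ALDOA, 1420 for the enolase ENO1 and 925 for LDHA. HIF1A stood at 705, far above its target CA9 with 5.06, the vasodilator peptide gene ADM with 0.866 and the oxygen sensor EGLN3 with 0.747. These genes together took 1.22% of all counts with FSH, 1.26% with FSK, 1.13% with SC79 and 1.38% with PMA, against 1.17% in the control. The lower glycolytic enzymes supply most of that sum.

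The carbonic anhydrase CA9, a membrane enzyme that hydrates carbon dioxide outside the cell and a classic HIF-1 target, differed most among the genes well above the minimum. It had 434 with FSH, 589 with FSK, 135 with SC79 and 713 with PMA, against 189 in the control, in scaled counts. The order was PMA, FSK, FSH, control and SC79, and the 95% intervals of neighbouring libraries did not overlap. CA9 thus stood at 2.3-fold the control level (95% interval 1.94 to 2.72) with FSH, 3.12 (2.65 to 3.67) with FSK, 0.713 (0.566 to 0.892) with SC79 and 3.78 (3.23 to 4.43) with PMA. The gene lies at chr9:35673856-35681159, and 38.5% of its exon bases are also exons of ARHGEF39 on the opposite strand. Reads of the 2 genes cannot be told apart where they overlap, since no strand setting is given. ARHGEF39 had 331 with FSH, 132 with FSK, 346 with SC79 and 239 with PMA, against 336 in the control, in scaled counts. It was lower with FSK and PMA, its own estimate rests on the same division of shared reads, and its part in the CA9 level was not tested.

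FSH gave small differences across the set. Of 35 genes, 28 were above the control with FSH, where 47.2% of the 14585 tested genes were, and 7 were below it (52.8%). The median log2 ratio was 0.07, against -0.01 for all tested genes. The authors' own normalized signal, which does not equalise the libraries, put the median of all tested genes at -0.16 with FSH. Only 9 of the 35 then stood above the control. In it 29 stood above that all-gene median, as with TMM scaling. Such a count is all but fixed, because 1 constant per library moves all genes alike. It is no check of the result here or below. Only CA9 and EGLN3 passed 1.2-fold upward (background 7.12%), and ADM passed it downward (5.55%). CA9 alone passed 2-fold upward, where 0.768% of tested genes did, and 0 genes passed it downward (0.295%). EGLN3, a HIF-inducible prolyl hydroxylase, had 57 with FSH, 42.9 with FSK, 37.1 with SC79 and 52.5 with PMA, against 46.8 in the control, in scaled counts. Its interval with FSH ran from 0.819 to 1.81 and includes 1. ADM had 21 with FSH, 24.1 with FSK, 12.7 with SC79 and 57.4 with PMA, against 36.7 in the control, in scaled counts, and so few counts leave its fold with FSH at 0.572 (0.32 to 0.993). Cell division genes had a median log2 ratio of -0.24 over 28 genes with FSH, 13 of them past 1.2-fold downward, and their part in these ratios was not tested.

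FSK gave larger differences in both directions. Above the control stood 23 of 35 genes (51.5% of tested genes), and 17 passed 1.2-fold upward where 25.2% of tested genes did. The 4 that passed 1.2-fold downward were PFKFB3, PFKP, ENO1 and ADM, against a background of 24.7%. CA9 was the one gene past 2-fold upward (4.66%), and 0 genes passed 2-fold downward (5.77%). The median log2 ratio was 0.14, against 0.01 for all tested genes; in the authors' signal it was -0.032 beside an all-gene median of -0.16, with 22 genes above that all-gene median. Cell division genes were lower in the same library, with a median log2 ratio of -2.21 over 28 genes with FSK, and their part in these ratios was not tested.

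With SC79 the direction turned the other way. Only 5 of 35 genes were above the control and 30 were below it (51.5% of tested genes). The 7 that passed 1.2-fold downward were CA9, BNIP3, ENO2, LDHA, PDK1, EGLN3 and ADM (background 7.62%), and 0 passed it upward (7.95%). Past 2-fold upward there were 0 genes (0.59%). Past 2-fold downward there was ADM alone, where 0.281% of tested genes were, with 12 estimated counts in the SC79 library and 40 in the control. The median was -0.13, against -0.01 for all tested genes, and in the authors' signal -0.40 beside an all-gene median of -0.28. Cell division genes had a median of -0.19 over 28 genes with SC79.

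PMA gave 26 of 35 genes above the control (49.5% of tested genes), 9 below it (50.5%) and a median of 0.17, against -0.00428 for all tested genes. In the authors' signal the median was -0.062 beside an all-gene median of -0.24, with 26 genes above that all-gene median. The 13 that passed 1.2-fold upward stand against a background of 23.3%. The 7 that passed it downward were PFKFB3, PFKP, PFKM, LDHB, PDK1, P4HA1 and P4HA2 (24.6%). CA9, NDRG1 and PFKFB4 passed 2-fold upward (4.09%) and 0 genes passed it downward (4.4%). Cell division genes had a median of -1.04 over 28 genes with PMA. Of 5 immune markers 2 reached the minimum, and their summed level was 877 with FSH, 927 with FSK, 1123 with SC79 and 2231 with PMA, against 845 in the control. The macrophage and lysosome gene CD68 carried most of that sum, and the T cell gene CD3E was at 0 in every library. Of 5 endothelial markers 3 reached the minimum, with a summed level of 416 with FSH, 393 with FSK, 307 with SC79 and 1009 with PMA, against 348 in the control. Within it PECAM1 (648) and VWF (238) were higher with PMA than in the control (109 for PECAM1, 98.3 for VWF), while KDR was lower (104 with PMA, 139 in the control). Of 5 theca and stroma markers 3 reached the minimum, with a sum carried by PDGFRA, which had 20356 with FSH, 16255 with FSK, 22234 with SC79 and 32549 with PMA, against 19997 in the control. The part of these markers in the PMA ratios was not tested.

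**Figure D1:**
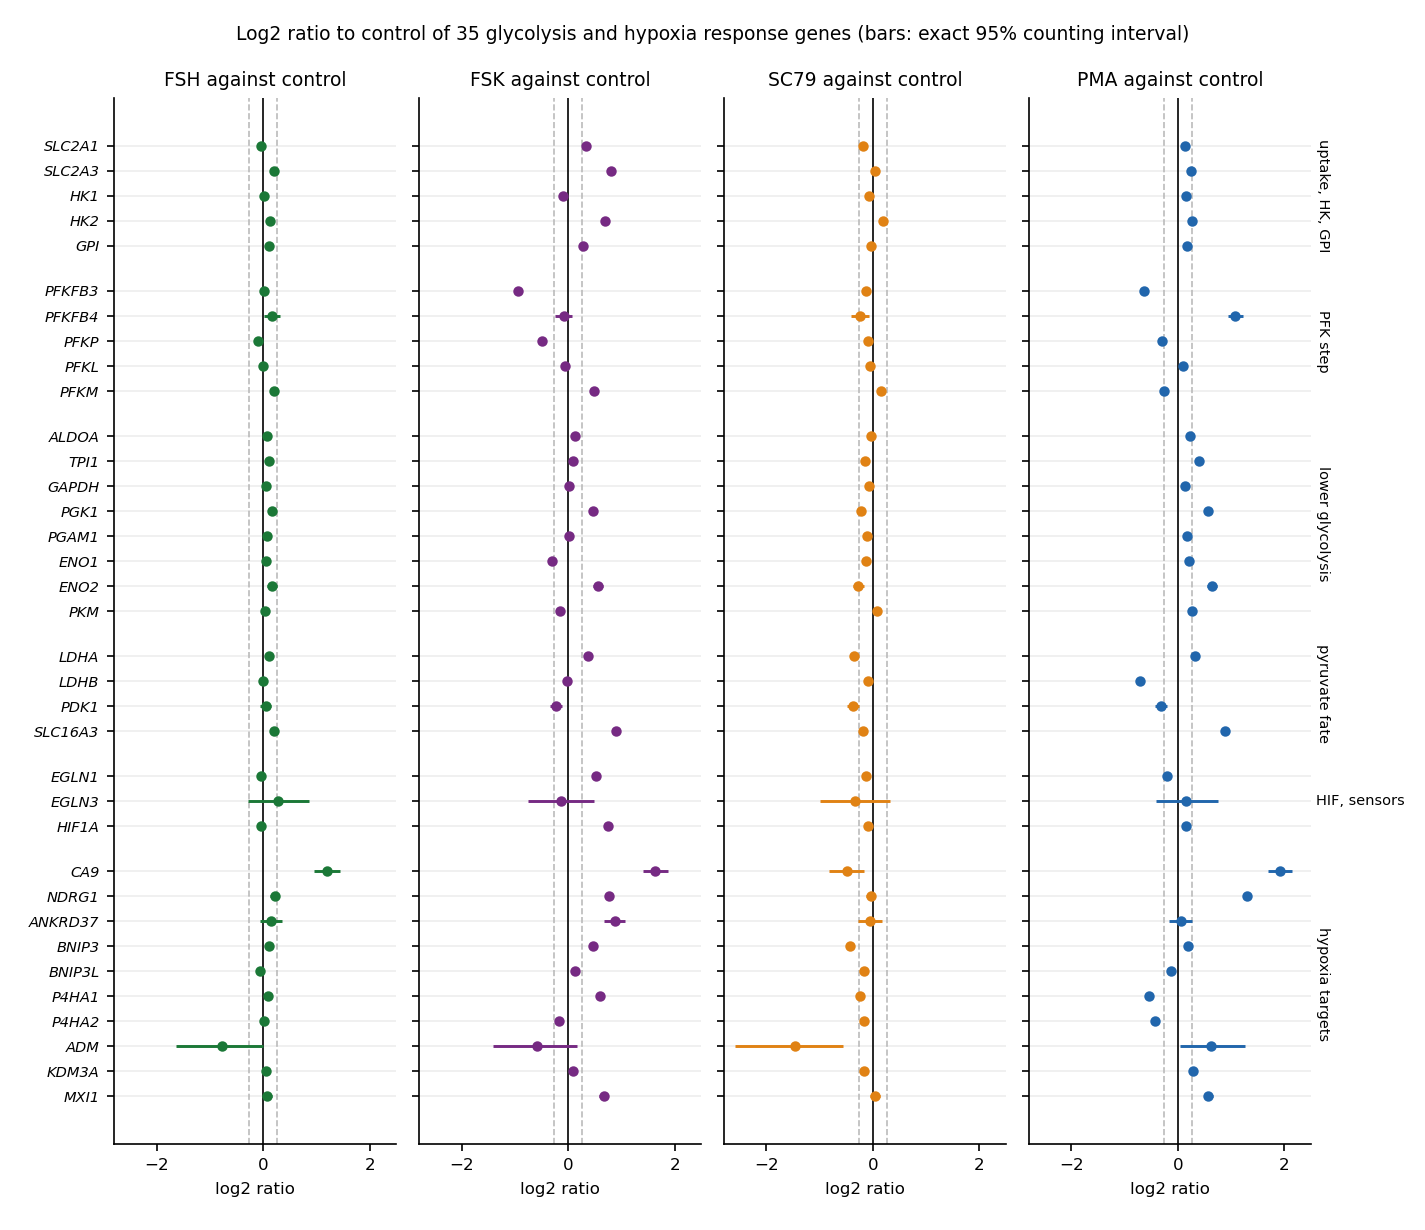
Log2 ratio to the control (horizontal axis) of each of 35 genes (rows, ordered by role) with FSH, FSK, SC79 and PMA, 1 library each; bars are exact 95% counting intervals and dashed lines mark 1.2-fold. CA9 is the point farthest to the right with FSH, FSK and PMA, while 30 of 35 points lie left of 0 with SC79.

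**Figure D2:**
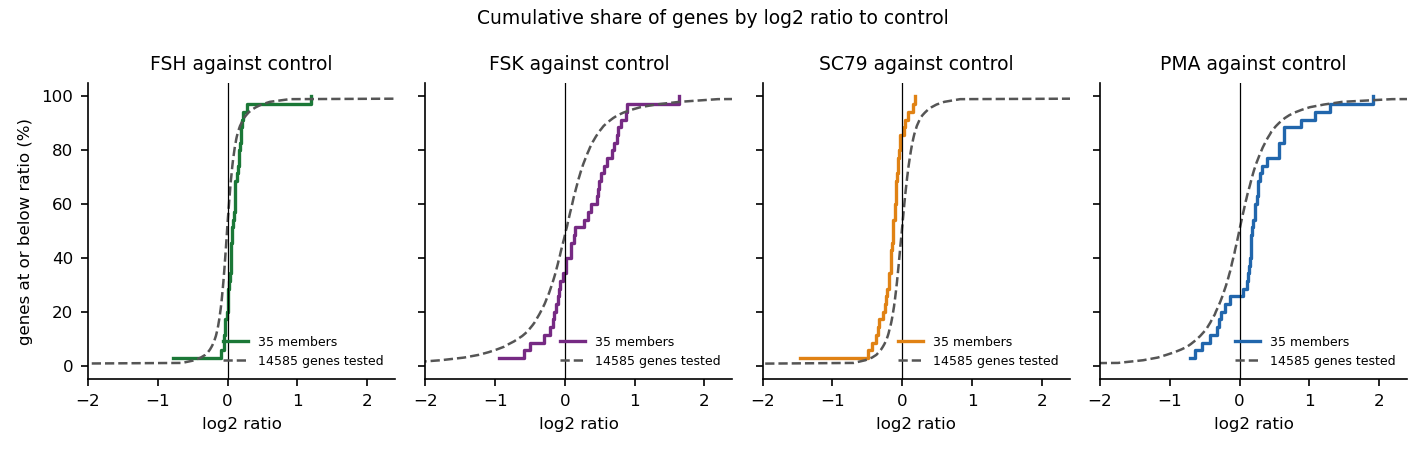
Cumulative share of genes (vertical axis, percent) at or below a given log2 ratio to the control (horizontal axis, shown from -2 to 2.4), for the 35 genes (solid) and all 14585 tested genes (dashed), in 4 panels by treatment. The solid line lies to the right of the dashed one near its middle with FSH, FSK and PMA and to the left with SC79. The medians are 0.07 for FSH, 0.14 for FSK, 0.17 for PMA and -0.13 for SC79. In the authors' signal the first 3 medians fall below 0. Their place above the all-gene median is unchanged, because that scaling moves all genes of a library alike.

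Genes of glucose uptake and phosphorylation were past 1.2-fold higher with FSK for 4 of 5 members (25.2% of tested genes). SLC2A3, a high-affinity glucose transporter, had 4528 with FSH, 6922 with FSK, 4039 with SC79 and 4715 with PMA, against 3953 in the control, in scaled counts, and was at 1.75-fold the control level (95% interval 1.68 to 1.82) with FSK. Its sequence is shared in part with SLC2A14, a transporter that had 337 with FSH, 447 with FSK, 304 with SC79 and 125 with PMA, against 229 in the control, in scaled counts. HK2, the inducible hexokinase bound to mitochondria, had 15928 with FSH, 23555 with FSK, 16554 with SC79 and 17436 with PMA, against 14505 in the control, in scaled counts. With TMM scaling it was higher than the control in all 4 treated libraries, most with FSK at 1.62 (1.59 to 1.66). In the authors' signal, 0 of the 5 genes of glucose uptake and phosphorylation stood above the control with SC79. With FSH 1 did, with PMA 2 and with FSK 4. SLC2A1, the widespread basal transporter, was at 1.26 (1.2 to 1.31) with FSK and 0.874 (0.833 to 0.917) with SC79. HK1, the constitutive hexokinase, stayed within 0.939 to 1.12 of the control in the 4 treated libraries. GPI, which turns glucose 6-phosphate into fructose 6-phosphate, was at 1.22 (1.19 to 1.24) with FSK.

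At the phosphofructokinase step the members went different ways. PFKFB3, whose product raises fructose 2,6-bisphosphate and so speeds glycolysis, had 8337 with FSH, 4312 with FSK, 7586 with SC79 and 5327 with PMA, against 8297 in the control, in scaled counts. It was lower with FSK at 0.52 (0.501 to 0.539) and with PMA at 0.642 (0.621 to 0.664), while FSH differed from the control by less than counting error, at 1.0 (0.975 to 1.04). PFKFB4, a related enzyme of the same family, had 730.4 with FSH, 615 with FSK, 551 with SC79 and 1376 with PMA, against 649.9 in the control, in scaled counts. The PMA library alone stood out, at 2.12-fold the control level (95% interval 1.93 to 2.32). UCN2, a peptide hormone gene next to it whose exons overlap 4.73% of its exon bases on the same strand, had 177 with FSH, 191 with FSK, 161 with SC79 and 629.8 with PMA, against 207 in the control, in scaled counts, and its part in the PFKFB4 level was not tested. Of the 31-base words of the most abundant PFKFB4 transcript, 99.9% occurred in no other gene.

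The phosphofructokinases themselves differed too. PFKP, the platelet form and the most abundant of the 3 per length in every library, had 22766 with FSH, 17282 with FSK, 22896 with SC79 and 19858 with PMA, against 24370.2 in the control, in scaled counts. It was lowest with FSK, at 0.709 (0.695 to 0.723). PFKM, the muscle form, had 4915 with FSH, 6002 with FSK, 4748 with SC79 and 3551 with PMA, against 4279 in the control, in scaled counts, and was at 1.4 (1.35 to 1.46) with FSK and 0.83 (0.794 to 0.867) with PMA. PFKL, the liver form, stayed between 0.956 and 1.08 of the control in all 4 treated libraries.

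The enzymes of lower glycolysis were all 8 above the control with FSH and with PMA, where 47.2% of tested genes were with FSH and 49.5% with PMA. Their log2 ratios spanned 0.04 to 0.17 with FSH and 0.14 to 0.64 with PMA. In the authors' signal 2 of 8 with FSH and 4 of 8 with PMA were above the control. All 8 were above the all-gene median with both, which a constant per library leaves unchanged. With SC79, 7 of 8 were below the control (51.5%), with a median of -0.12. PGK1, which makes the first ATP of the pathway, had 16236 with FSH, 19999.9 with FSK, 12454 with SC79 and 21361 with PMA, against 14502 in the control, in scaled counts, with 1.38 (1.35 to 1.41) for FSK, 0.859 (0.838 to 0.88) for SC79 and 1.47 (1.44 to 1.5) for PMA. TPI1, which interconverts the triose phosphates, had 22000.2 with FSH, 21697 with FSK, 18369 with SC79 and 26903 with PMA, against 20392 in the control, in scaled counts, and only PMA was past 1.2-fold, at 1.32 (1.3 to 1.34).

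The 2 enolases parted with FSK. ENO1, the common enolase, had 60078 with FSH, 47122 with FSK, 52934 with SC79 and 67366 with PMA, against 58019 in the control, in scaled counts, and was lowest with FSK at 0.812 (0.802 to 0.822). ENO2, the enolase best known from neurons, had 1835 with FSH, 2414 with FSK, 1349 with SC79 and 2536 with PMA, against 1629 in the control, in scaled counts, and was higher with FSK at 1.48 (1.39 to 1.58) and with PMA at 1.56 (1.46 to 1.65). GAPDH, often used as a loading reference, had 113380.0 with FSH, 110909 with FSK, 103613 with SC79 and 120808 with PMA, against 109763 in the control, in scaled counts, and all treated libraries lay within 0.944 to 1.1 of the control. ALDOA and the phosphoglycerate mutase PGAM1 lay between 0.929 and 1.17. PKM was at 0.898 (0.891 to 0.906) with FSK and 1.21 (1.2 to 1.22) with PMA; 1 transcript, PKM-202, held between 89.9% and 91.2% of PKM counts in every library. ALDOC, below the minimum, had 21 with FSH, 14.6 with FSK, 23.3 with SC79 and 20.8 with PMA, against 17.4 in the control, in scaled counts.

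The genes that decide the fate of pyruvate separated lactate export from the B subunit of lactate dehydrogenase. SLC16A3, the lactate exporter, had 3851 with FSH, 6219 with FSK, 2932 with SC79 and 6165 with PMA, against 3352 in the control, in scaled counts. The FSK and PMA libraries were high, at 1.86 (1.78 to 1.93) for FSK and 1.84 (1.76 to 1.92) for PMA, and PMA over FSK was 0.991 (0.956 to 1.03). SC79 was the lowest, at 0.875 (0.832 to 0.919). LDHA, the subunit that favours lactate formation, had 35256 with FSH, 42518 with FSK, 25729 with SC79 and 41105 with PMA, against 32824 in the control, in scaled counts, with 1.3 (1.28 to 1.31) for FSK, 0.784 (0.771 to 0.797) for SC79 and 1.25 (1.23 to 1.27) for PMA. LDHB, the subunit of heart-type lactate dehydrogenase, had 17504 with FSH, 17249 with FSK, 16402 with SC79 and 10797 with PMA, against 17588 in the control, in scaled counts. Only PMA was low for LDHB, at 0.614 (0.60 to 0.629), and the other treated libraries lay within 0.933 to 0.995. An overlapping gene on the same strand, AC010197.2, shares 33.4% of LDHB exon bases and had no level under that name. Of the 31-base words of the most abundant LDHB transcript, only 24.5% occurred in no other gene. The part of shared reads in the LDHB level was not tested.

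PDK1, the kinase that switches off pyruvate dehydrogenase, had 1417 with FSH, 1181 with FSK, 1058 with SC79 and 1097 with PMA, against 1373 in the control, in scaled counts, and was lowest with SC79 at 0.77 (0.71 to 0.834) and with PMA at 0.799 (0.739 to 0.864). Per transcript length PDK1 stood at 15.7 with FSH, 13.2 with FSK, 11 with SC79 and 15.3 with PMA, against 14.5 in the control, in TPM. The direction with PMA depended on the scale. So did that of BNIP3L, described below, at 143 TPM with PMA against 133 in the control but a fold of 0.913. These TPM values carry no TMM factor, and its part in the difference was not tested. The 1515-base transcript PDK1-202 held 14.4% of PDK1 counts with PMA and 10.3% in the control, and the part of this share was not tested either.

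**Figure D3:**
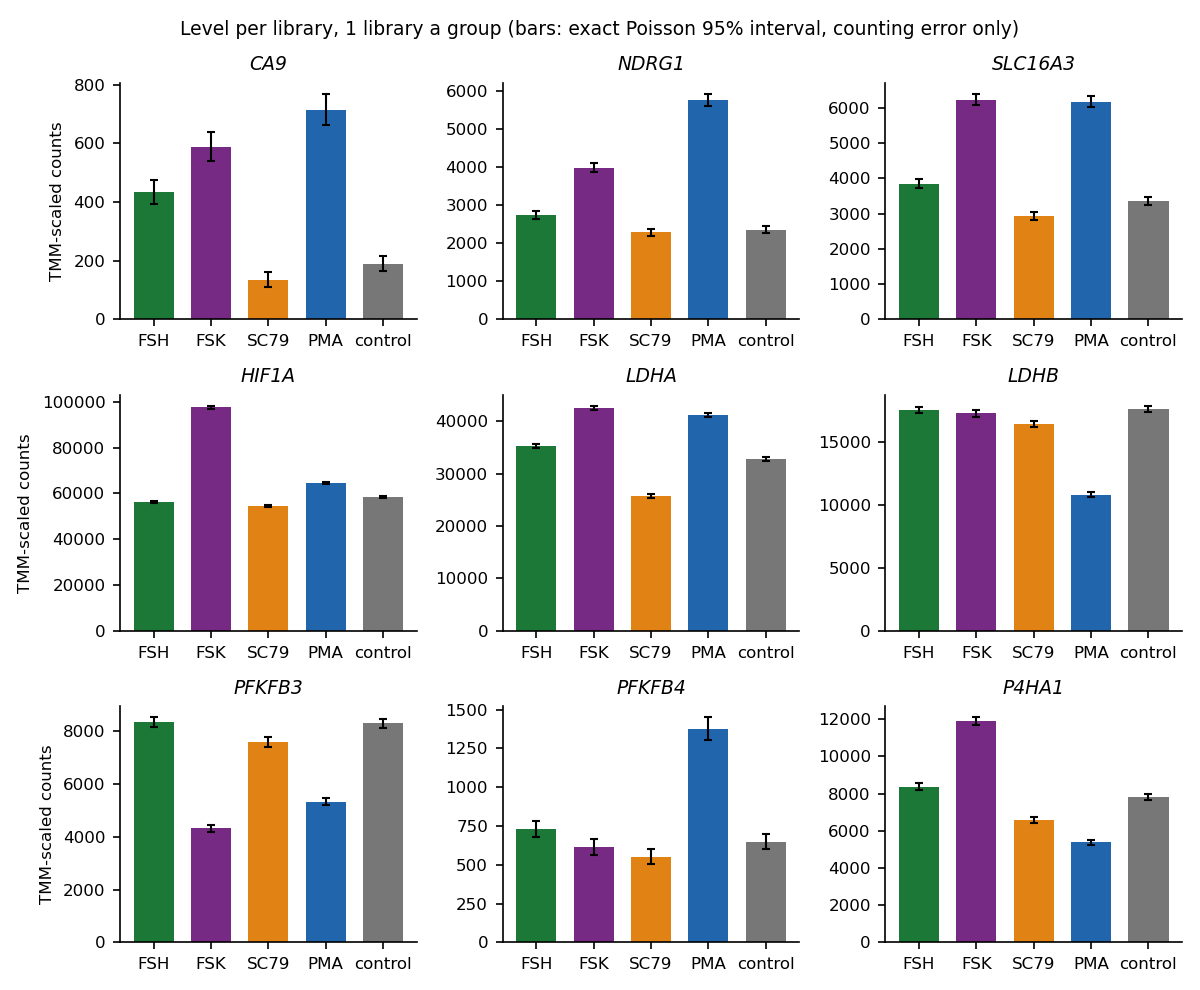
Scaled counts (vertical axes, from 0) of 9 genes in the FSH, FSK, SC79, PMA and control libraries, 1 bar a library; error bars are exact Poisson 95% intervals and cover counting error only. SLC16A3 is high with FSK and PMA, HIF1A and P4HA1 are high with FSK, PFKFB4 with PMA, and LDHB is low with PMA.

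HIF1A itself was higher with FSK. It had 56386 with FSH, 97681 with FSK, 54699.7 with SC79 and 64426 with PMA, against 58279.7 in the control, in scaled counts, and stood at 1.68-fold the control level (95% interval 1.66 to 1.69) with FSK and 1.11 (1.09 to 1.12) with PMA. FSH, at 0.967 (0.957 to 0.979), and SC79, at 0.939 (0.928 to 0.95), lay slightly below. These are RNA levels, and the HIF1A protein is set largely by its breakdown, which was not measured. EGLN1, the main oxygen sensor that hydroxylates HIF1A, had 8414 with FSH, 12385 with FSK, 7864 with SC79 and 7464 with PMA, against 8641 in the control, in scaled counts, and was higher with FSK at 1.43 (1.39 to 1.47) and lower with PMA at 0.864 (0.838 to 0.89), which is short of 1.2-fold. EGLN3 had intervals that include 1 with all 4 treatments, so a difference was not detectable at its depth of 35 to 57 estimated counts.

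Among the other hypoxia targets FSK gave the highest of the 4 medians, a log2 ratio of 0.54 over 10 genes, with 6 of them past 1.2-fold upward (25.2% of tested genes). The medians were 0.09 with FSH, -0.16 with SC79 and 0.24 with PMA. NDRG1, a stress-response gene induced by HIF and by hormones, had 2734 with FSH, 3987 with FSK, 2286 with SC79 and 5766 with PMA, against 2354 in the control, in scaled counts. It was ordered PMA, FSK, FSH, control and SC79, as CA9 was, with 2.45 (2.34 to 2.57) for PMA and 1.69 (1.61 to 1.78) for FSK. The SC79 interval, 0.971 (0.917 to 1.03), includes 1. MXI1, a MYC antagonist, had 1898 with FSH, 2863 with FSK, 1849.6 with SC79 and 2674 with PMA, against 1799 in the control, in scaled counts, and was high with FSK at 1.59 (1.5 to 1.69) and with PMA at 1.49 (1.4 to 1.58). KDM3A, a histone demethylase, passed 1.2-fold with PMA alone, at 1.22 (1.17 to 1.28).

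ANKRD37, a small ankyrin protein gene used as a hypoxia marker, was high in 1 library. It had 362 with FSH, 601 with FSK, 313 with SC79 and 339 with PMA, against 327 in the control, in scaled counts, and only FSK stood apart, at 1.84 (1.61 to 2.1). The intervals of FSH, at 1.11 (0.954 to 1.29), and PMA, at 1.04 (0.893 to 1.21), include 1. UFSP2, on the opposite strand and overlapping 35.2% of its exon bases, had 1138 with FSH, 1221 with FSK, 1223 with SC79 and 1073 with PMA, against 1125 in the control, in scaled counts. Within ANKRD37 the retained-intron transcript ANKRD37-206 held 14.3% of counts with PMA and 26.9% in the control, which was the largest change of a transcript share among 447 transcripts of 33 genes.

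BNIP3 and BNIP3L, which mark mitochondria for removal, differed in size of response. BNIP3 had 3575 with FSH, 4621 with FSK, 2477 with SC79 and 3802 with PMA, against 3329 in the control, in scaled counts, with 1.39 (1.33 to 1.45) for FSK and 0.744 (0.706 to 0.784) for SC79. BNIP3L stayed between 0.892 and 1.1 in all 4 treated libraries. The prolyl hydroxylases of collagen also parted. P4HA1 had 8365 with FSH, 11878 with FSK, 6566 with SC79 and 5382 with PMA, against 7812 in the control, in scaled counts, high with FSK at 1.52 (1.48 to 1.56) and low with PMA at 0.689 (0.666 to 0.713). P4HA2 had 4204 with FSH, 3697 with FSK, 3722 with SC79 and 3113 with PMA, against 4172 in the control, in scaled counts, and was lowest with PMA at 0.746 (0.713 to 0.781). The transcript P4HA1-202 held 54.2% of P4HA1 counts with FSK and 42.8% in the control.

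Ratios within a pair of related enzymes do not depend on how the libraries were scaled, and per length they gave the share of each form. Of the summed LDHA and LDHB level, LDHB made up 36.3% with FSH, 32.6% with FSK, 43% with SC79 and 23.1% with PMA, against 38.8% in the control. The PMA interval of 22.7% to 23.5% lay below, and the SC79 interval of 42.5% to 43.5% above, those of the other libraries. Of the 2 hexokinases, HK2 made up 46.5% with FSH, 58% with FSK, 49.1% with SC79 and 46.2% with PMA, against 44.5% in the control, so that HK2 exceeded HK1 with FSK alone. Of the 2 PFKFB forms, PFKFB4 made up 11.4% with FSH, 17.4% with FSK, 9.79% with SC79 and 29.2% with PMA, against 10% in the control, with an interval of 28% to 30.5% for PMA.

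Of the summed PFKM and PFKP level, PFKM made up 17.4% with FSH, 25.5% with FSK, 17.6% with SC79 and 15% with PMA, against 15.2% in the control. Of the 2 collagen prolyl hydroxylases, P4HA2 made up 37.2% with FSH, 26.9% with FSK, 40.5% with SC79 and 41.1% with PMA, against 38.6% in the control. FSK was the library apart in both of these pairs. Of the 2 glucose transporters, SLC2A1 made up 47.7% with FSH, 47.4% with FSK, 51.4% with SC79 and 51.6% with PMA, against 55.3% in the control. Its share over all transcripts was thus lower in every treated library. The most abundant SLC2A1 transcript, SLC2A1-208, is labelled as subject to nonsense-mediated decay. It held 50.1% of SLC2A1 counts with FSH, 52.3% with FSK, 50.1% with SC79 and 51% with PMA, against 52.9% in the control. The share from coding transcripts alone is not given and may differ. A share shows unequal change of 2 genes and not which of them changed.

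**Figure D4:**
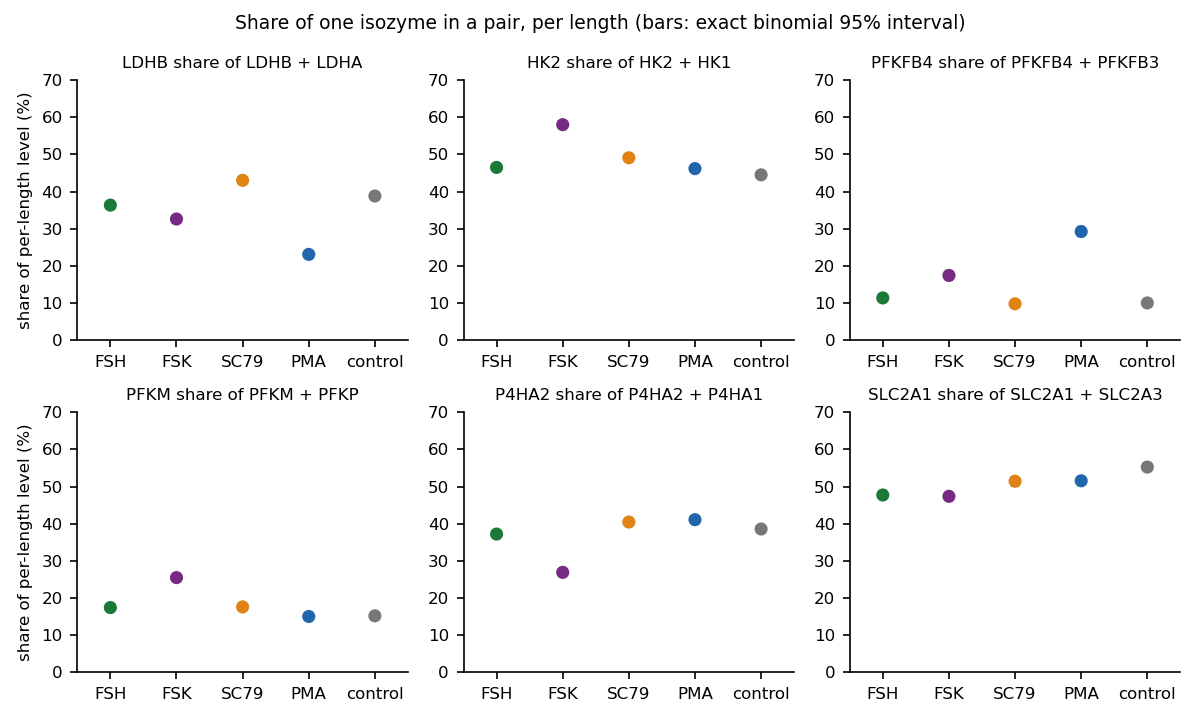
Share (vertical axes, percent of the summed per-length level, 0 to 70) of one form in 6 pairs of related genes in the FSH, FSK, SC79, PMA and control libraries; bars are exact binomial 95% intervals, mostly smaller than the points. The PMA library is apart for LDHB and PFKFB4, and the FSK library for HK2, PFKM and P4HA2.

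The 4 ratios to control share 1 control library, so 3 direct comparisons that leave it out are given beside them. FSK against FSH, both of which act through cyclic AMP, gave 21 of 35 genes above FSH (51.4% of tested genes) and 14 below it (48.6%), with a median of 0.19. Past 1.2-fold were 16 genes upward (23.9%) and 4 downward (23.1%), and 0 passed 2-fold in either direction (3.63% upward, 4.94% downward). HIF1A was at 1.73 (1.71 to 1.75) in FSK over FSH, SLC16A3 at 1.61 (1.55 to 1.68) and CA9 at 1.36 (1.2 to 1.54). PFKFB3 was at 0.517 (0.498 to 0.537), and so lay just short of 2-fold lower in FSK than in FSH. Cell division genes had a median of -2.0 over 28 genes in FSK over FSH.

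SC79 against FSH gave 32 of 35 genes below FSH (50% of tested genes), a median of -0.17, and 11 genes past 1.2-fold downward (8.28%) with 0 upward (7.6%). Past 2-fold, 0 genes were higher (0.487%) and CA9 alone was lower (0.706%), at 0.31 (0.252 to 0.379) in SC79 over FSH. LDHA was at 0.73 (0.718 to 0.742), PGK1 at 0.767 (0.749 to 0.786), SLC16A3 at 0.761 (0.725 to 0.80) and HK2 at 1.04 (1.02 to 1.06). Cell division genes differed little here, with a median of 0.05 over 28 genes.

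PMA against FSK gave 18 of 35 genes above FSK (49.7% of tested genes), 17 below it (50.3%) and a median of 0.07, with 9 genes past 1.2-fold upward (26.1%) and 10 downward (25.7%). PFKFB4 was at 2.24 (2.03 to 2.47) in PMA over FSK and ADM at 2.39 (1.45 to 4.05), both past 2-fold upward (6.27%). P4HA1 at 0.453 (0.439 to 0.468) was past 2-fold downward (5.75%). All 8 lower glycolytic enzymes were higher in PMA than in FSK (49.7%), with ENO1 at 1.43 (1.41 to 1.45) and PKM at 1.34 (1.33 to 1.35). HIF1A at 0.66 (0.653 to 0.666), EGLN1 at 0.603 (0.585 to 0.62) and LDHB at 0.626 (0.611 to 0.641) were lower. Cell division genes had a median of 1.2 over 28 genes in PMA over FSK.

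Other genes of these pathways were read from lists that do not overlap the 36. Their counts stand against the shares of all tested genes past 1.2-fold, which were 7.12% upward and 5.55% downward with FSH, 25.2% and 24.7% with FSK, 7.95% and 7.62% with SC79, and 23.3% and 24.6% with PMA. Of 30 other glycolysis and pyruvate genes, 3 passed 1.2-fold upward and 0 downward with FSH, 12 and 3 with FSK, 0 and 0 with SC79, and 6 and 7 with PMA, the PMA counts being near the shares of all tested genes. The highest with FSK were SLC2A12, a glucose transporter with a log2 ratio of 2.09, and PDK4, a second pyruvate dehydrogenase kinase, with 1.66. PDK4 had 296 with FSH, 683 with FSK, 212 with SC79 and 239.5 with PMA, against 215 in the control, in scaled counts, so FSK stood apart and FSH was next. PDK1, of the 36, was at -0.22 with FSK on the log2 scale.

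Of 18 other genes of the HIF system, 0 passed 1.2-fold in either direction with FSH or SC79, 2 passed it upward and 1 downward with FSK, and 5 and 2 with PMA, which is near the share of all tested genes for the 5 upward with PMA and below it for both FSK counts. ARNT, the partner with which HIF1A binds DNA, had 2835 with FSH, 3442 with FSK, 2620.0 with SC79 and 3379.7 with PMA, against 2608 in the control, in scaled counts. ARNT2, a related partner, had 11153 with FSH, 5885 with FSK, 11748 with SC79 and 12246 with PMA, against 11522 in the control, in scaled counts, and was low with FSK alone. EPAS1, the HIF-2 alpha subunit, was at a log2 ratio of 0.57 with PMA, and VHL, the receptor that marks hydroxylated HIF for breakdown, at -0.39.

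Of 48 other hypoxia targets, 2 passed 1.2-fold upward and 2 downward with FSH, 18 and 13 with FSK, 1 and 6 with SC79, and 14 and 9 with PMA, so that the 13 downward with FSK and the 14 upward with PMA were close to the shares of all tested genes. Median log2 ratios were 0.02 with FSH, 0.18 with FSK, -0.09 with SC79 and 0.11 with PMA. PLOD2, a collagen lysyl hydroxylase, had 14859 with FSH, 59132 with FSK, 9942 with SC79 and 24696 with PMA, against 10094 in the control, in scaled counts. The chemokine receptor gene CXCR4 had 11 with FSH, 87.9 with FSK, 3.18 with SC79 and 793 with PMA, against 10.1 in the control, in scaled counts, high with PMA. LOX, a collagen cross-linking enzyme, was below the control in all 4 treated libraries, at -0.27 with FSH, -0.83 with FSK, -0.46 with SC79 and -0.37 with PMA on the log2 scale.

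The pentose phosphate pathway branches from glucose 6-phosphate and yields NADPH. Its 8 genes had a median log2 ratio of -0.02 with FSH, -0.03 with FSK, 0.06 with SC79 and -0.27 with PMA. TKT, a transketolase, had 15079.7 with FSH, 15639 with FSK, 23501 with SC79 and 8959 with PMA, against 15246 in the control, in scaled counts. It was highest with SC79 and lowest with PMA.

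Of 8 glycogen genes, 2 passed 1.2-fold upward and 3 downward with FSK, 2 and 3 with PMA, and 0 with FSH or SC79; the upward counts were near the shares of all tested genes. GYG1, which primes glycogen, had 2194 with FSH, 4211 with FSK, 2248 with SC79 and 3779 with PMA, against 2131 in the control, in scaled counts, high with FSK and PMA. PYGB, a glycogen phosphorylase, had 12372 with FSH, 8936 with FSK, 12324 with SC79 and 9847 with PMA, against 13214 in the control, in scaled counts, and was lowest with FSK.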

How the data were processed

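Poly(A) RNA of 5 KGN libraries, 1 a group, was sequenced in pairs. The authors deposited estimated counts per transcript, per the file headers. Trimmomatic, kallisto and edgeR stand in the submitters' processing notes, with no version; neither build nor index is named in the sources used here. The deposited normalized signal equals those counts times 1 constant per library and was used as an alternative scaling. The authors' deposited table gives log2 fold changes, p-values and adjusted p-values per transcript; with 1 library a group the basis of its p-values is unknown here.

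The 36 genes and all lists were chosen with earlier results of these data known. Ratios per gene had been planned, without a test. The deposited values are per transcript, so estimated counts were summed over transcripts of each gene name. Gene sums were rounded to whole numbers for TMM factors (edgeR 4.0.16, R 4.3.3) and scaled to the mean effective library size. Log2 ratios used a pseudocount of 1 and genes with a mean of at least 20 scaled counts. Intervals are exact conditional binomial ones (SciPy 1.17.1), and their code was checked on simulated Poisson counts. Such counts follow the model behind the intervals, so the check does not reach shared reads or differences between cultures. Reads copied by PCR are no independent molecules, so these intervals cover counting error only. With 1 library a group there was no test.

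Rows that name no gene held 0.0535% to 0.068% of counts and were left out. Transcript lengths, coordinates and overlaps came from GENCODE 29 (GRCh38), which covered 97.6% of counts. Promoters came from RefSeq (GRCh38.p14). All 36 genes are reported; of other lists, those named had the 2 highest or 2 lowest ratios to control in a treatment among genes reaching 100 scaled counts in either library, and 0 sample columns were unmatched. Some genes of these lists are not reported here. Alternatives were other scalings, pseudocounts, level minimums and transcript sets.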

Additional observations from a re-analysis of the deposited data

How the results depend on the processing

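Across 10 alternatives, 503 of 504 single-gene ratios past 1.2-fold kept their direction. Each ratio was counted once per alternative, and changes of pseudocount or level minimum cannot reverse one. Nor could the other scalings, which moved ratios with FSH, FSK and PMA by less than 1.2-fold. With SC79 the largest move was downward, and 0 genes were past 1.2-fold upward there. Adding pseudogenes left all 140 ratios within their counting intervals. The count of 503 was thus largely fixed in advance, and mainly the choice of transcripts could have changed it. The exception was EGLN3 with FSH, at a log2 ratio of -0.20 when only its most abundant transcript was counted, against 0.28. Sizes were less stable. Of 140 single-gene ratios, 127 left their counting interval in the authors' normalized signal. With the most abundant transcript alone 49 did, with library totals 35, and with protein-coding transcripts alone 11. Of 350 summary values, 322 stayed in range. For a median the range was the typical counting interval of the genes. For a count of genes past a fold it was a set ratio to the main count. Most of these values are such counts, so staying in range does not mean staying within counting error. In the authors' normalized signal the median log2 ratio of all tested genes was -0.16 with FSH, -0.16 with FSK, -0.28 with SC79 and -0.24 with PMA. The medians of the 35 genes were then -0.087 with FSH, -0.032 with FSK, -0.40 with SC79 and -0.062 with PMA. Relative to the all-gene median they stood at 0.07, 0.13, -0.13 and 0.18, values that 1 constant per library hardly alters. Under that scaling 1 gene was past 1.2-fold upward with FSH and 8 with PMA, 8 were past it downward with FSK and 30 with SC79, and 1 passed 2-fold downward with FSK; of all tested genes, 3.86% with FSH and 11.7% with PMA were then past 1.2-fold upward, 38.8% with FSK and 54.2% with SC79 downward, and 7.58% past 2-fold downward with FSK. SC79 against FSH then had a median of -0.29 with 20 past 1.2-fold downward (16.4% of all tested genes), and PMA against FSK 0.0061 with 5 upward (22.4%). Scaling by library totals put PMA at a median of 0.24 with 4 past 1.2-fold downward, and PMA against FSK at 0.15. A pseudocount of 5 left 1 gene past 1.2-fold upward with FSH. With a minimum mean of 100, which drops ADM and EGLN3, FSH had 1 upward and 0 downward, the FSK median was 0.28, SC79 had 0 past 2-fold downward, and PMA against FSK had a median of -0.013 with 1 past 2-fold upward. With a minimum mean of 1, which adds ALDOC, SC79 had 1 past 1.2-fold upward. With protein-coding transcripts alone FSH had 4 past 1.2-fold upward. With the most abundant transcript alone, 1 gene was past 2-fold downward with FSK, 1 in FSK against FSH and 2 in SC79 against FSH. The cause of these changes was not tested, except where genes were dropped or added. No paired analysis was possible because each group has 1 library, and leaving out a replicate was not possible for the same reason. The 9 genes CA9, ANKRD37, BNIP3, SLC2A3, TPI1, GAPDH, PGAM1, LDHA and LDHB had under 80% of the 31-base words of their most abundant transcript to themselves, and the estimated counts of these depend on how shared reads were divided. Depth limits EGLN3, ADM and ALDOC.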

Other observations

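The authors' deposited table also holds a comparison of LH, luteinising hormone, with the control, for which no library was analysed here. For the most abundant transcript of each of 35 genes, the authors' deposited table gave LH a median log2 fold change of -0.16, with 11 above 0. The median over all transcripts with a fold change other than 0 was 0.04. That second median had no level minimum, so the 2 medians are not like for like. NDRG1-201 stood at 0.82, CA9-201 at 0.56 and LDHA-203 at -0.64 with LH in the authors' deposited table.

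In the same table, adjusted p-values under 0.05 fell on 12 of 475 transcripts of the 36 genes with FSH, 15 with FSK, 13 with SC79, 18 with PMA and 19 with LH. That is 2.53% with FSH, 3.16% with FSK, 2.74% with SC79, 3.79% with PMA and 4% with LH, where the shares of all 179973 transcripts in the authors' deposited table were 1.80% with FSH, 2.20% with FSK, 1.84% with SC79, 2.17% with PMA and 2.74% with LH. Of the first 4 sets, 12, 15, 13 and 17 transcripts had under 0.5 counts in 1 of the 2 libraries compared. The most abundant transcript of a gene was among them once, ADM-201 with SC79, where the authors' deposited table gave a log2 fold change of -8.23 and an adjusted p of 0.0129. The gene sum of ADM was 12 estimated counts with SC79, against 40 in the control.

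SLC2A3P1, a processed relative of SLC2A3, had 50.6 scaled counts with FSH and 0 in the other 4 libraries. The other pseudogenes of the 36 genes held under 1% of their parent in every library, apart from EGLN3P1, with 1.06 scaled counts with SC79.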
